A study of Mus musculus with 6 samples.

Results

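The 10 genes described here encode goblet cell products other than mucins, or factors that specify secretory cells, and were followed in small intestinal tumours of mice engineered to lose both atypical protein kinases C from intestinal epithelium. All 10 symbols, out of 23393 named genes in the deposited count table, were found, and all 10 passed the filter on low counts. They were grouped by role into products (Zg16, Fcgbp, Tff3 and Spink4), the endoplasmic reticulum (Agr2 and Creb3l4) and lineage regulators (Atoh1, Gfi1, Spdef and Klf4). The DKO tumour group held 3 tumours, 1 per library, from C57BL/6 mice aged 12 weeks that carried Villin-Cre and floxed alleles of PKClambda and PKCzeta. The WT intestine group held small intestine of 3 mice of the same strain and age, with the same floxed alleles and without the Cre. The villin promoter drives Cre in intestinal epithelium, so stromal and immune cells in the tumours kept both kinase genes. Tissue and genotype changed together and cannot be told apart.

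Goblet cells arise in the crypt from progenitors in which Notch signalling is low and Atoh1 is on, and Gfi1 and Spdef act after Atoh1. They fill their theca with the gel-forming mucin Muc2 and with proteins that bind to or travel with it. Agr2 helps fold this cargo in the endoplasmic reticulum. Paneth cells share Atoh1, Gfi1, Spdef and part of this secretory machinery.

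Library totals ranged from 12491561 to 15799269 counts. Levels are given as CPM, counts scaled to a common library size on the TMM scale, which corrects library totals for composition. Prkcz, one of the targeted genes, was at 19.3, 16.4 and 14.7 CPM in tumours 1 to 3 of the DKO group, against 70.0, 69.7 and 60.8 CPM in WT intestine 1 to 3, and it fell by 1.99 on the log2 scale (SE 0.152, edgeR adjusted p = 0.000233). The other, Prkci, was at 98.0, 80.3 and 103 CPM in DKO tumours and 53.2, 80.6 and 77.6 CPM in WT intestine, a difference that was not called (edgeR adjusted p = 0.134). Counts over a whole gene in whole tissue do not show an exon deletion in the epithelium. The 8 pan-epithelial markers summed to between 9230 and 13500 CPM in DKO tumours and between 7810 and 9690 CPM in WT intestine, so epithelial transcripts were abundant in every library. The tumours differed in some markers of gut position, and the markers of a position did not move together. Fabp6, an ileal bile acid binding protein, was at 0.535, 71.7 and 0.074 CPM in tumours 1 to 3 of the DKO group, against at most 0.472 CPM in WT intestine. Cybrd1, the duodenal ferric reductase, was at 2190, 11.9 and 460 CPM in the same tumours, against at most 6.80 CPM in WT intestine. Of the other ileal markers, Slc10a2 was highest in DKO tumour 2 (46.7 CPM) and was not called. Slc51a and Slc51b fell (edgeR adjusted p = 0.0162 and 0.0102). Of the other duodenal markers Slc40a1 rose (edgeR adjusted p = 0.00784), and Slc46a1, Gata4 and Gata6 were not called. Tff2 and Muc6, products of mucous glands of stomach and duodenum, were at 293 and 103 CPM in DKO tumour 1 and at most 1.68 CPM in each other library.

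Of the 10 goblet genes, 5 fell in DKO tumours (Zg16, Tff3, Spink4, Atoh1 and Klf4) and 0 rose, at an adjusted p under 0.05 in edgeR's quasi-likelihood test. Of all 13866 genes tested, 13.8% fell, 15.9% rose and 29.7% were called in either direction. Rises and falls over all genes numbered 2211 and 1911, against 3767 and 1071 scaled by library totals alone, and 938 and 3963 scaled to pan-epithelial markers. No member rose at an unadjusted p under 0.05 either, a threshold at which no share over all genes was computed. DESeq2 called 6 falls and 0 rises among the 10, against 2353 falls and 2328 rises over all genes tested. The median log2 fold change of the 10 genes, DKO tumour over WT intestine, was -0.68, against 0.02 over all genes tested. In 6 of the 10 genes every DKO tumour lay below every WT library, against 22.9% of all genes tested, and in none did every tumour lie above (25.1% of all genes). Ranges without overlap in either direction were found for 48% of all genes. In whole tissue, fewer goblet cells and less RNA per goblet cell cannot be told apart. The count of falls was 2 without DKO tumour 3 and 3 without DKO tumour 1 or without any one of the WT libraries. It was 5 without DKO tumour 2.

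**Figure D1:**
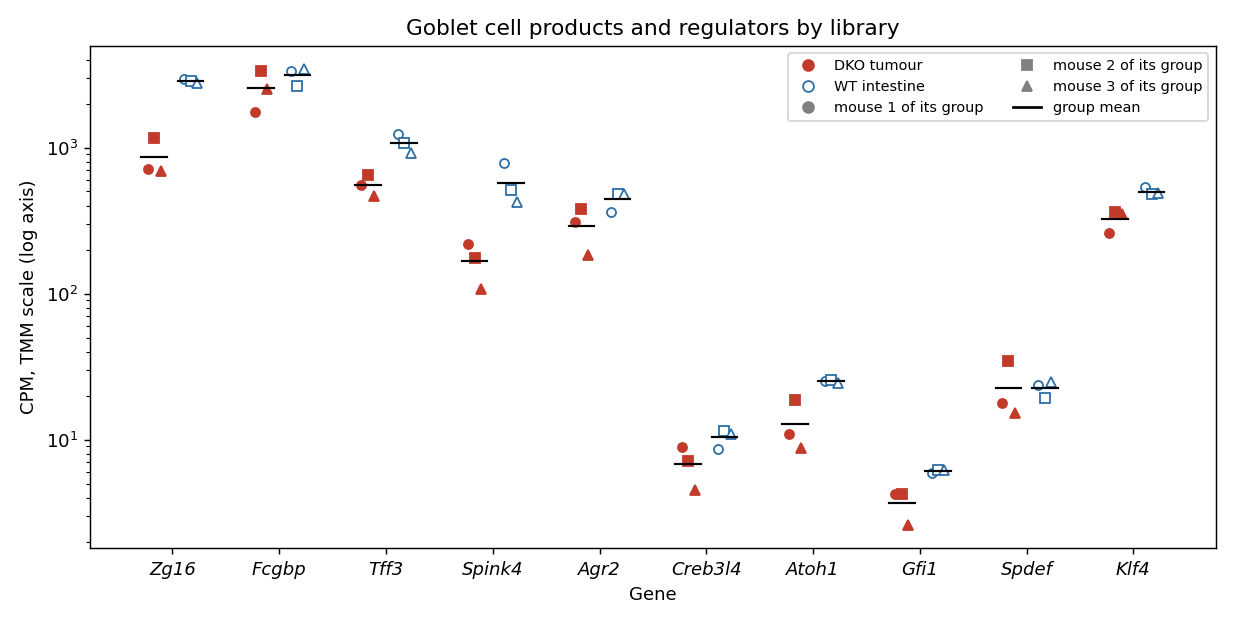
CPM on a log axis for the 10 goblet genes in each library. Filled red symbols are the 3 DKO tumours, open blue symbols the 3 WT libraries, and bars the group means. Zg16, Tff3, Spink4, Atoh1, Gfi1 and Klf4 show no overlap between the groups, and Spdef has the same mean of 22.6 CPM in both.

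The largest falls among the products were in Zg16 and Spink4, by about the same factor, while Tff3 fell less and Fcgbp was not called. Zg16 (chromosome 7, 127050156 to 127087328, mm10) encodes a small lectin of the mucus layer that binds Gram-positive bacteria. Its level was 718, 1170 and 689 CPM in tumours 1 to 3 of the DKO group, against 2940, 2850 and 2780 CPM in WT intestine 1 to 3. Every tumour lay far below the narrow WT range, and the log2 fold change was -1.73 (SE 0.257, edgeR adjusted p = 0.00284), a level 3.32-fold higher in WT. This call was made in all 15 fits, the main one and its alternatives.

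Spink4 (chromosome 4, 40920052 to 40931395) encodes a Kazal-type inhibitor peptide of goblet and Paneth cells. Its level was 220, 176 and 107 CPM in DKO tumours, against 778, 511 and 421 CPM in WT intestine. The groups did not overlap, although WT intestine 1 stood above the other WT libraries. The log2 fold change was -1.77 (SE 0.323, edgeR adjusted p = 0.00648), and this call too was made in all 15 fits. Paneth cell markers moved with it. All 9 of that list were lower in every tumour than in every WT library and 7 fell, with a summed level of 291 to 790 CPM in DKO tumours and 12800 to 15700 CPM in WT intestine. Their part in the fall of Spink4 was not tested.

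Tff3 (chromosome 17, 31125306 to 31129646), the intestinal trefoil peptide of mucosal repair, was at 555, 646 and 466 CPM in DKO tumours, against 1230, 1070 and 913 CPM in WT intestine. Again each tumour lay below each WT library. Its log2 fold change was -0.95 (SE 0.203, edgeR adjusted p = 0.012), and the call ended without DKO tumour 3 (adjusted p = 0.0691).

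Fcgbp (chromosome 7, 28071236 to 28120862) encodes a large mucus protein with von Willebrand D domains that associates with Muc2. Its level was 1750, 3350 and 2520 CPM in DKO tumours, against 3360, 2650 and 3460 CPM in WT intestine. The groups overlapped, with DKO tumour 2 inside the WT range and DKO tumour 1 lowest. The log2 fold change, -0.31 (SE 0.279, edgeR adjusted p = 0.426), missed the threshold, which does not show equal levels.

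The products stood in other proportions to each other in the tumours, a comparison within each library that no scaling changes. The ratio of Fcgbp to Zg16 counts was 2.44, 2.86 and 3.66 in DKO tumours, against 1.14, 0.927 and 1.25 in WT intestine. The ratio of Spink4 to Tff3 counts was 0.396, 0.272 and 0.229 in DKO tumours, against 0.631, 0.477 and 0.462 in WT intestine. In both ratios the groups did not overlap. No background over other pairs of genes was computed, and the CPM ranges of 48% of single genes did not overlap either. Zg16 also stood lower against Muc2, at 1.35, 0.812 and 1.18 Zg16 counts per Muc2 count in DKO tumours and 1.97, 2.13 and 1.83 in WT intestine. Muc2 itself was at 532, 1440 and 586 CPM in DKO tumours and 1490, 1340 and 1510 CPM in WT intestine, with DKO tumour 2 alone at the WT level. It was not called (log2 fold change -0.76, SE 0.378, edgeR adjusted p = 0.164) except without DKO tumour 2 (-1.36, adjusted p = 0.00457). These ratios were chosen after the values were seen, and with 3 against 3 libraries an exact two-sided permutation test cannot go below p = 0.1.

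**Figure D2:**
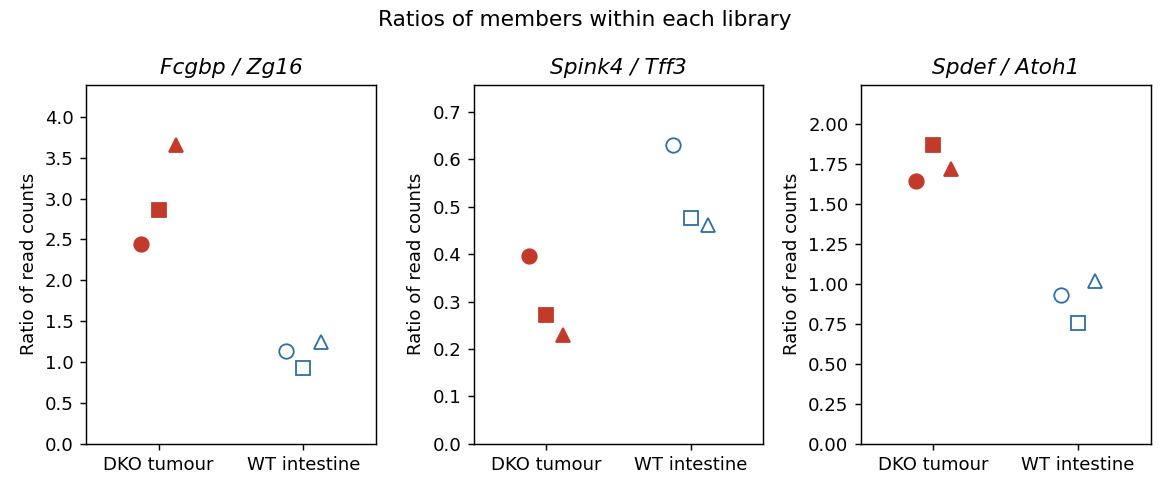
Ratios of read counts within each library for Fcgbp to Zg16, Spink4 to Tff3 and Spdef to Atoh1, with DKO tumours as filled red and WT intestine as open blue symbols (circle, square and triangle for mouse 1, 2 and 3 of a group). The DKO tumours lie at 2.44 to 3.66, 0.229 to 0.396 and 1.64 to 1.87, outside the WT ranges in all 3 panels.

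Neither gene of the endoplasmic reticulum was called. Agr2 (chromosome 12, 35992907 to 36004087), a protein disulfide isomerase needed to make Muc2, was at 307, 378 and 184 CPM in DKO tumours, against 360, 484 and 480 CPM in WT intestine. DKO tumour 2 lay within the WT range and DKO tumour 3 well below it, and the log2 fold change was -0.61 (SE 0.271, edgeR adjusted p = 0.127). Creb3l4 (chromosome 3, 90237500 to 90243512), a membrane-bound transcription factor of the CREB3 family, was at 8.92, 7.11 and 4.52 CPM in DKO tumours, against 8.68, 11.5 and 10.9 CPM in WT intestine. DKO tumour 1 overlapped the WT range, and the log2 fold change was -0.60 (SE 0.268, edgeR adjusted p = 0.129).

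Among the regulators Atoh1 and Klf4 fell, Gfi1 lay just outside the threshold and Spdef had equal group means. Atoh1 (chromosome 6, 64729125 to 64731245) encodes the basic helix-loop-helix factor on which all secretory lineages depend. Its level was 10.9, 18.6 and 8.81 CPM in DKO tumours, against 25.4, 25.5 and 24.4 CPM in WT intestine. The WT libraries were nearly equal and each tumour lay below them, with DKO tumour 2 nearest. The log2 fold change was -0.97 (SE 0.265, edgeR adjusted p = 0.0285). Without DKO tumour 2 it was -1.34 (adjusted p = 0.00297), and the call ended without DKO tumour 1 (0.066), DKO tumour 3 (0.0909) or WT intestine 1, 2 or 3 (0.0561, 0.0854 and 0.0665). It also ended when libraries were scaled by their totals alone (-0.72, adjusted p = 0.0752).

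Klf4 (chromosome 4, 55527143 to 55532466) encodes a zinc finger factor of differentiated epithelium that colonic goblet cells need to mature, and other epithelial and stromal cells express it too. Its level was 258, 361 and 352 CPM in DKO tumours, against 534, 477 and 487 CPM in WT intestine. No tumour reached the WT range, and DKO tumour 1 was lowest. The log2 fold change was -0.63 (SE 0.179, edgeR adjusted p = 0.0336). Without DKO tumour 2 the call held narrowly (0.0493). It ended without DKO tumour 1 (0.0529), DKO tumour 3 (0.092) or WT intestine 1, 2 or 3 (0.0507, 0.0871 and 0.0763). Scaled by library totals alone, the change was -0.37 and was not called (adjusted p = 0.126). Enterocyte markers moved with it, with 10 of 14 fallen and 0 risen, and a summed level of 25800 to 31500 CPM in DKO tumours and 49000 to 87300 CPM in WT intestine. Of the 11 markers of fibroblasts, muscle and endothelium, 6 rose and 2 fell, with sums of 892 to 1220 CPM in DKO tumours and 710 to 1000 CPM in WT intestine. The part of either in the Klf4 value was not tested.

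Gfi1 (chromosome 5, 107716657 to 107726036), a zinc finger repressor downstream of Atoh1, was at 4.22, 4.22 and 2.59 CPM in DKO tumours, against 5.95, 6.21 and 6.23 CPM in WT intestine. This was the least abundant member, with 35 to 71 counts in DKO tumours and 63 to 96 counts in WT intestine. The groups did not overlap, and the log2 fold change of -0.73 (SE 0.244) missed the threshold in edgeR (adjusted p = 0.0556) and passed it in DESeq2 (adjusted p = 0.0396). Blood cells also express Gfi1. Ptprc, the pan-leukocyte CD45 gene, was at 52.0, 19.3 and 28.9 CPM in DKO tumours and 57.3, 54.6 and 53.5 CPM in WT intestine. The leukocyte and neutrophil list summed to 55.9 to 90.2 CPM in DKO tumours and 81.0 to 90.3 CPM in WT intestine. Elane was at 0 in every library. Of the 6 tested genes of that list 3 rose (S100a8, S100a9 and Csf3r) and 1 fell (Cd3e). S100a8 was at 6.37, 5.3 and 5.4 CPM in DKO tumours and at most 0.0944 CPM in WT intestine. The part of blood cells in the Gfi1 value was not tested. An annotated gene on the other strand, A430072P03Rik, overlaps Gfi1 exons, and without a stated strand setting the reads of both cannot be told apart.

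Spdef (chromosome 17, 27714352 to 27728955), the Ets factor of goblet and Paneth cell maturation, was at 17.9, 34.7 and 15.2 CPM in DKO tumours, against 23.6, 19.2 and 25 CPM in WT intestine. DKO tumour 2 stood above all WT libraries and the other tumours below them. The group means were equal at 22.6 CPM (SD 10.6 in DKO tumours and 2.99 in WT intestine, n = 3 each), and the log2 fold change was -0.0016 (SE 0.303, edgeR adjusted p = 0.997). Its sign turned with the scaling and with the libraries used. Against Atoh1, Spdef was higher in every tumour, at 1.64, 1.87 and 1.72 Spdef counts per Atoh1 count in DKO tumours and 0.929, 0.756 and 1.02 in WT intestine. The groups overlapped in the other ratios of regulators that were computed. Spdef counts per Klf4 count were 0.0694, 0.0961 and 0.0431 in DKO tumours and 0.0442, 0.0404 and 0.0512 in WT intestine. Gfi1 counts per Atoh1 count were 0.388, 0.227 and 0.294 in DKO tumours and 0.234, 0.244 and 0.255 in WT intestine.

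The 250 bases before the annotated start are shown for 3 regulators that differed in their values and for Fcgbp, the product that was not called (RefSeq, build GRCm38.p6, which is mm10). The windows are chr6:64728875-64729124 on the plus strand for Atoh1, chr4:55532476-55532725 on the minus strand for Klf4, chr17:27728952-27729201 on the minus strand for Spdef and chr7:28070986-28071235 on the plus strand for Fcgbp. Capitals mark matches on either strand to CAGCTG or CAGATG (E-box forms bound by factors of the Atoh1 class), GGATG (a core of Spdef sites), CACCC (a core of Klf4 sites) and TATAAA.
Atoh1: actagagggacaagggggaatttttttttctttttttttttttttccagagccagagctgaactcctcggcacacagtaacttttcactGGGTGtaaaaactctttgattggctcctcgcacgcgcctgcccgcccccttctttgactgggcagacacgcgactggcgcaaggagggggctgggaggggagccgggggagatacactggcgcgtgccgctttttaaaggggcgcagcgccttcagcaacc
Klf4: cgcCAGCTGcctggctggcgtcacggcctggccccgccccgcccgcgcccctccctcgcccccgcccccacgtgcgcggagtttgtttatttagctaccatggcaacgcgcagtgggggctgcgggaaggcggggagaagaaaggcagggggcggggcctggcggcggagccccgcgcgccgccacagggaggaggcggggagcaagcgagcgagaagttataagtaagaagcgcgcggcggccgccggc
Spdef: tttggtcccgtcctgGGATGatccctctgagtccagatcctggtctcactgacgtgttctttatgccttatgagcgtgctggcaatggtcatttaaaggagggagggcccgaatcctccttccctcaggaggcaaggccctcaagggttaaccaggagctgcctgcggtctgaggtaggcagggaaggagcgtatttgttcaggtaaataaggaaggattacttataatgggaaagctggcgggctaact
Fcgbp: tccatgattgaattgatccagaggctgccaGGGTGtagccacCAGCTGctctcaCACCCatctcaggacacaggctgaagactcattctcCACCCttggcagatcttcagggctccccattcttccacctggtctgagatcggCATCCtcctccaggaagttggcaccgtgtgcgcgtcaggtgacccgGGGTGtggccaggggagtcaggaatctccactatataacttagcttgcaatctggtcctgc
CAGCTG was found once in the Fcgbp and once in the Klf4 window, and in 13% of all 32851 windows of this length. CAGATG (14.4% of windows) and TATAAA (12.4%) were in none of the 4. GGATG was found once in the Spdef and once in the Fcgbp window (37.3% of all windows), and CACCC 4 times in Fcgbp and once in Atoh1 (52%). The Klf4 window had a GC content of 74%, against 55.6% for Atoh1, 52.8% for Spdef, 56.4% for Fcgbp and a median of 52.4% over all windows. Windows were at hand for 7 of the 10 genes. A match describes the letters of a window and shows no binding.

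Per kilobase of exon the order of the genes differed between the groups only among neighbours. In RPKM, which divides CPM by exon length, DKO tumours had Tff3 first (1130 ± 182, SD, n = 3), then Zg16 (684 ± 216), Spink4 (351 ± 119), Fcgbp (242 ± 76.1), Agr2 (224 ± 76.1), Klf4 (106 ± 18.7), Spdef (9.80 ± 4.58), Atoh1 (6.01 ± 2.42), Creb3l4 (4.08 ± 1.32) and Gfi1 (1.15 ± 0.296). WT intestine had Zg16 (2270 ± 63.5) and Tff3 (2180 ± 326) first, then Spink4 (1200 ± 389), Agr2 (342 ± 54.3), Fcgbp (301 ± 42.3), Klf4 (164 ± 10.1), Atoh1 (11.8 ± 0.282), Spdef (9.81 ± 1.30), Creb3l4 (6.18 ± 0.895) and Gfi1 (1.92 ± 0.049). Of neighbours in these orders, Fcgbp and Agr2 overlapped in both groups, Spink4 and Fcgbp, Spdef and Atoh1, and Atoh1 and Creb3l4 in DKO tumours, and Zg16 and Tff3 in WT intestine. The exon lengths were those of the annotation, 493 bases for Tff3 and 1257 bases for Zg16, and not of the transcripts used in these tissues.

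In these genes the tumours varied more among themselves than the WT libraries did. The standard deviation of log2(CPM + 0.5) was larger in DKO tumours for 10 of 10 goblet genes, against 48.6% of all genes tested. It ran from 0.235 (Tff3) to 0.617 (Spdef) in DKO tumours. In WT intestine it was as low as 0.034 for Atoh1 and as high as 0.452 for Spink4. The groups were close for Tff3 (0.235 in DKO tumours and 0.218 in WT intestine) and for Spink4 (0.531 and 0.452). DKO tumour 3 was the lowest tumour in 8 of the 10 genes, the exceptions being Fcgbp and Klf4, which were lowest in DKO tumour 1. DKO tumour 2 was the highest in all but Spink4 and Creb3l4, with Gfi1 almost level with DKO tumour 1. Of all genes tested, 24.9% were lowest in DKO tumour 3 and 37.3% highest in DKO tumour 2. DKO tumour 2 was also the one with the ileal marker Fabp6 at 71.7 CPM. Its level of the ileal marker Slc51a, 164 CPM, lay below every WT library. The part of gut position in these differences was not tested.

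**Figure D3:**
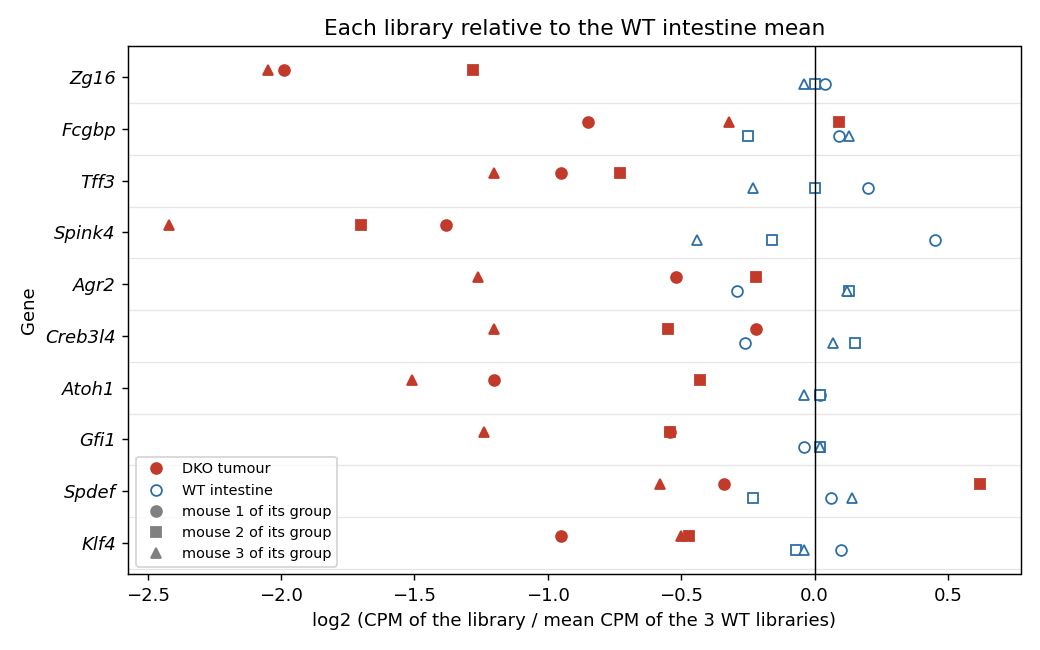
Log2 ratio of each library to the mean of the 3 WT libraries for the 10 goblet genes, with DKO tumours (filled red) above WT intestine (open blue) in each row. DKO tumour 3 (triangles) reached -2.42 for Spink4 and -1.51 for Atoh1, while DKO tumour 2 (squares) stood at 0.09 for Fcgbp and 0.62 for Spdef.

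Set against epithelial content, the differences depended on the marker. Relative to the mean log2 level of the 8 pan-epithelial markers, 9 of the 10 genes were lower in every tumour than in every WT library, all but Spdef, against 40.1% of all genes tested. The difference of group means was -2.19 for Zg16, -2.20 for Spink4, -1.46 for Atoh1 and -0.50 for Spdef on the log2 scale. Of those 8 markers 3 rose themselves (Krt19, Esrp1 and Grhl2) and 0 fell, with a median log2 fold change of 0.50. Relative to Epcam alone, 3 of the 10 (Zg16, Tff3 and Spink4) were lower in every tumour, against 6.51% of all genes tested. Epcam was at 1820, 1870 and 1630 CPM in DKO tumours and 2830, 2630 and 2250 CPM in WT intestine (edgeR adjusted p = 0.0723). Zg16, Tff3 and Spink4 were thus lower on both scales.

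Other goblet cell genes moved in both directions. Of the 23 tested of 26, 7 fell and 4 rose, with a median log2 fold change of -0.32. Over all genes tested 13.8% fell and 15.9% rose, so the share of rises in this list was near the background. The falls numbered 11 without DKO tumour 2. The rises numbered 2 without DKO tumour 2 or 3 and 1 without WT intestine 2 or 3. Clca1 (listed as Clca3 in the table), a secreted mucus metalloprotease also called gob-5, was at 358, 259 and 152 CPM in DKO tumours, against 1960, 1670 and 1920 CPM in WT intestine. It fell by 2.85 on the log2 scale (SE 0.322, edgeR adjusted p = 0.000944), more than any member. The chemokine genes Ccl6 (-3.06, SE 0.33) and Ccl9 (-1.58, SE 0.204) fell as well, and myeloid cells also make both. Fut2, a fucosyltransferase of surface glycans, rose to 32.5, 50.4 and 30.7 CPM in DKO tumours, against 3.11, 4.16 and 3.18 CPM in WT intestine (log2 fold change 3.44, SE 0.255, edgeR adjusted p = 0.0002). The 3 genes of the list below the filter were Retnlb, Best2 and St6galnac1, all at most 1.78 CPM in any library.

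Among 21 tested of 24 other regulators of secretory lineages and epithelial fate, 3 fell and 1 rose, with a median log2 fold change of -0.18. The shares over all genes tested were 13.8% fallen and 15.9% risen, so the falls in this list were near the background. Foxa1, a forkhead factor of goblet and enteroendocrine cells, rose to 52.5, 83.3 and 50.6 CPM in DKO tumours, against 20, 20.3 and 23 CPM in WT intestine (log2 fold change 1.55, SE 0.214, edgeR adjusted p = 0.0021). Its relative Foxa2 was at 2.80, 3.42 and 2.52 CPM in DKO tumours, against 4.06, 4.95 and 4.54 CPM in WT intestine (adjusted p = 0.0733). Bhlha15 (Mist1), a factor of secretory cell architecture, fell to 5.47, 3.29 and 3.33 CPM in DKO tumours, against 15.9, 16.2 and 18.4 CPM in WT intestine (log2 fold change -2.05, SE 0.241, edgeR adjusted p = 0.0011). The Notch ligand Dll1, which secretory precursors present to their neighbours, fell by 0.99 on the log2 scale (SE 0.224), and an antisense gene overlaps its exons. Ascl2, a stem cell factor, fell by 1.07 (SE 0.297, edgeR adjusted p = 0.0306), a call that held without DKO tumour 1 and ended without any other single library (0.0534 to 0.114). Hes1, the Notch target that represses Atoh1, was at 54.3, 47.0 and 50.4 CPM in DKO tumours and 45.7, 42.0 and 31.4 CPM in WT intestine (adjusted p = 0.147). Sox9 (adjusted p = 0.14) and the CREB3 family gene Creb3l1 (0.0762) were not called. Creb3l1 passed without DKO tumour 3 (0.0493). The rises numbered 2 without DKO tumour 3 or without WT intestine 1, and 3 by DESeq2.

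Of 33 genes of endoplasmic reticulum folding and secretion, 6 fell and 0 rose in edgeR, and 9 fell and 0 rose in DESeq2. Of all genes tested 13.8% fell in edgeR, so the edgeR share in this list was near the background. DESeq2 called 2353 falls and 2328 rises over all 13866 genes tested. The falls numbered 3 when libraries were scaled by their totals alone and 18 when they were scaled to pan-epithelial markers. At an unadjusted p under 0.05, 10 fell and 0 rose, and the share of all genes at that threshold was not computed. The fitted change was below 0 in 29 of the 33, against 6800 of all 13866 genes tested. The median was -0.27, and scaling by library totals alone moved the median of all genes by 0.26. Canx, the lectin chaperone calnexin, was at 549, 441 and 400 CPM in DKO tumours, against 820, 1050 and 1020 CPM in WT intestine (log2 fold change -1.06, SE 0.198, edgeR adjusted p = 0.00699). Agr3, the closest relative of Agr2, was at 1.19, 0.402 and 0.962 CPM in DKO tumours, against 2.83, 4.48 and 4.09 CPM in WT intestine (log2 fold change -2.14, SE 0.405, edgeR adjusted p = 0.0073). The oxidase gene Ero1lb fell by 1.91 on the log2 scale (SE 0.444, and not called without DKO tumour 3, adjusted p = 0.0679). Tram1, of the translocon, fell by 0.53 (SE 0.131). That call ended without DKO tumour 2 or 3 (0.051 and 0.112) or WT intestine 2 or 3 (0.0784 and 0.054). Xbp1, the factor of the unfolded protein response, was at 267, 229 and 237 CPM in DKO tumours and 261, 290 and 280 CPM in WT intestine (adjusted p = 0.355). Ern2, the goblet cell form of the sensor that splices Xbp1, was at 28.9, 29.1 and 26.2 CPM in DKO tumours and 17, 25.5 and 28.1 CPM in WT intestine (adjusted p = 0.361). The falls in this list numbered 2 without DKO tumour 3 and 3 without WT intestine 2.

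**Figure D4:**
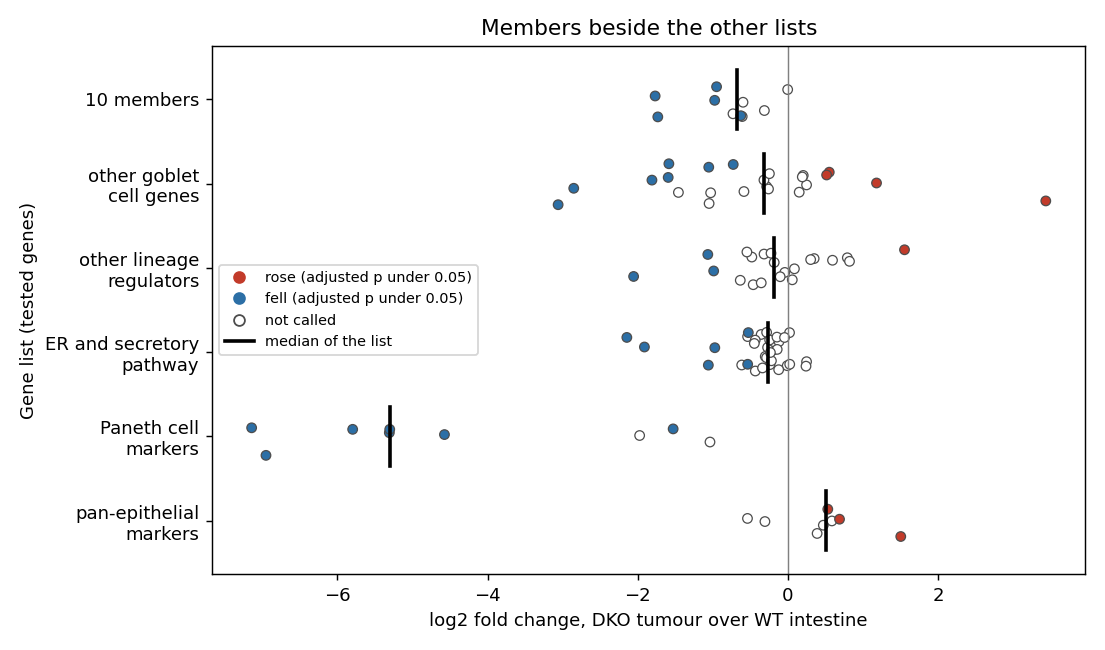
Log2 fold change, DKO tumour over WT intestine, of each tested gene in the 10 members and in 5 other lists (filled symbols passed an adjusted p under 0.05, blue for falls and red for rises, and bars are medians, with vertical scatter only to separate points). The median was -0.68 for the members, -0.32 for other goblet cell genes and -5.30 for Paneth cell markers.

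**Figure D5:**
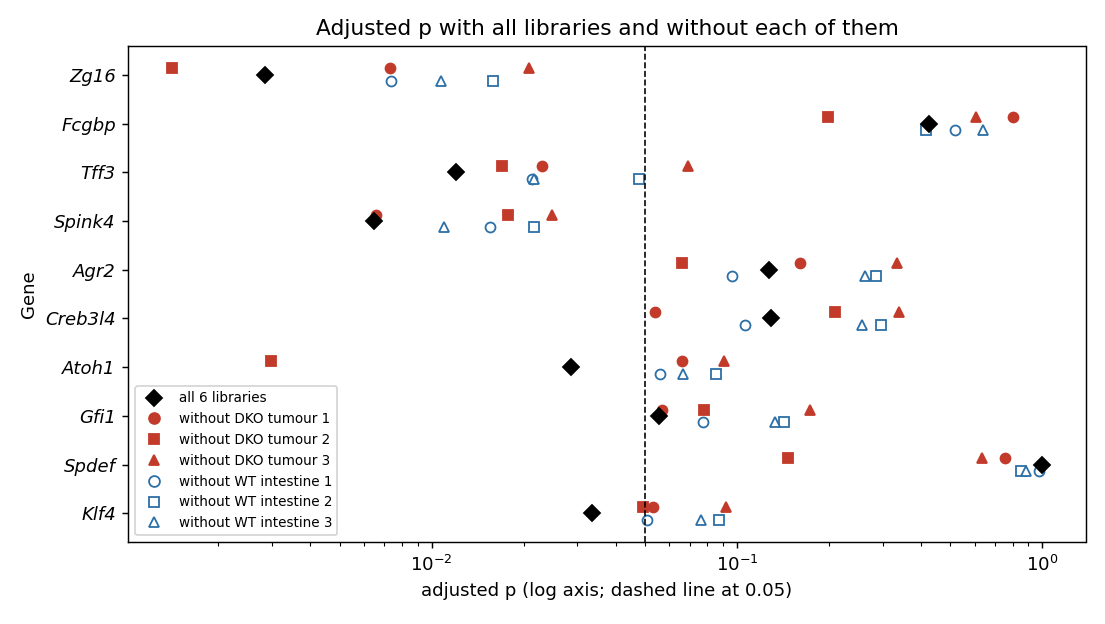
Adjusted p on a log axis for each goblet gene with all 6 libraries (black diamonds) and without each of them (filled red for a DKO tumour left out, open blue for a WT library left out), with the threshold of 0.05 dashed. Zg16 and Spink4 stay left of the line in every fit, while Atoh1 crosses it in 5 of its 6 fits without one library.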

How the data were processed

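Poly(A) RNA of whole tissue was sequenced as single-end reads of 75 bases from directional libraries, per the labels' protocols. The authors deposited raw read counts per gene symbol, 1 column per mouse. STAR, DESeq2 and mm10 appear in the submitters' processing notes, without versions. The sources used here name no read counter, no annotation and no strand setting for the counting. The deposited sheet's name refers to normal DKO tissue and its headers to DKO tumours, and the headers were followed.

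Of 23420 rows, 27 held a date in place of a symbol and were set aside (0.218% to 0.241% of the counts of a library). A gene was tested (13866 in all) if 3 or more libraries had 10 counts or more of it. The test was edgeR's quasi-likelihood F test (version 4.0.16, R 4.3.3) after TMM scaling, with Benjamini-Hochberg adjustment over all genes tested and a threshold of 0.05. The SE beside an edgeR value was derived from it, as the absolute log2 fold change divided by the square root of F. The script was tested on simulated counts with the same spread setting in every gene and group, unlike these libraries. The alternatives were DESeq2 1.42.0 as the test, other scalings and filters, the replicate number as a block, and fits without each library. Coordinates and exon lengths are from GENCODE M21 (mm10). The labels name tissue of a mouse for each library and no batch, so p-values measure the spread between these 3 mice per group. The goblet genes and the 16 lists were chosen with earlier results of these data known. Named beyond the 10 were the called gene with the largest rise and the 4 with the smallest adjusted p of 3 lists, plus Muc2, Clca1, Prkcz, Prkci, 8 fixed regulators and 7 markers. Krt19, Esrp1, Grhl2, Retnlb, Best2, St6galnac1, Elane, S100a8, S100a9, Csf3r and Cd3e were named after their values were seen. So were the ileal and duodenal markers other than Fabp6 and Cybrd1. Markers of tuft and enteroendocrine cells were counted as well: of 7 and 11 tested, 5 and 7 fell and 0 of either rose. Of the gastric list 6 of 7 rose, of 3 ileal markers 2 fell, and of 5 duodenal markers 2 rose.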

Additional observations from a re-analysis of the deposited data

How the results depend on the processing

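The 3 mice per group limit the precision of every value. Scaling moved the median of all genes by 0.26 (library totals) and -0.41 (pan-epithelial markers) on the log2 scale, and other scalings moved it by less than 0.1. The 10 goblet genes had 5 falls, which became 3 under library totals and 9 under pan-epithelial scaling, and 2 to 5 without 1 library. Under library totals the calls for Atoh1 (adjusted p = 0.0752) and Klf4 (0.126) ended. No alternative gave a rise among them. Over all genes, calls (rises and falls) numbered 1028 and 838 when DKO tumour 3 was left out, 1442 and 1291 for DKO tumour 2, and 1149 and 1026 for WT intestine 2. They numbered 2216 and 2059 for DKO tumour 1, 2151 and 1945 for WT intestine 1, and 1568 and 1275 for WT intestine 3. Zg16 and Spink4 were called in all 15 fits and Tff3 in 14. Gfi1 was called in 4, with DESeq2, DESeq2 size factors, the filter of 50 counts and pan-epithelial scaling. Falls of other goblet cell genes were 12 under pan-epithelial scaling and 5 to 11 without 1 library. Their rises were 1 under pan-epithelial scaling, 2 with the replicate block and 1 to 3 without 1 library. Other regulators had 8 falls under pan-epithelial scaling. Their rises were 3 by DESeq2, 5 under library totals, 2 with upper-quartile factors, 3 with the replicate block and 1 to 2 without 1 library. Falls of endoplasmic reticulum genes were 3 under library totals, 18 under pan-epithelial scaling and 2 to 9 without 1 library. Goblet genes lower in every tumour numbered 9 against the 8 epithelial markers and 3 against Epcam.

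Of 447 alternative fold changes of 32 genes, 392 kept sign and call, 27 lost the call, 18 gained it and 10 changed sign. Spdef was at 0.26 under library totals, 0.08 with upper-quartile factors and 0.0068 without the filter, and -0.44 to 0.23 without 1 library. It was positive without DKO tumour 1 (0.15) or 3 (0.23) or WT intestine 1 (0.02) or 3 (0.08). Xbp1 was at 0.0744 under library totals, and Ern2 (-0.17) and Hes1 (-0.0374) turned under pan-epithelial scaling. Where no construction of the alternative shows it, the cause was not tested. Agr3 had no value under the filter of 50 counts.

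The labels do not say that the replicate numbers pair mice. Deviations of same-numbered libraries correlated at 0.016, -0.002 and -0.031, and no library correlated best with its own number. So few libraries cannot exclude a pairing. With the replicate block 4 goblet genes fell, and the call for Klf4 ended (adjusted p = 0.0761).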
